A study of Mus musculus with 8 samples.

Results

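The 3 long windows named after Eml1, Tenm4 and Gse1 carried more H3K27ac in Gata6 knockout than in control colon cancer organoids. H3K27ac is acetylation of histone H3 at lysine 27 and marks enhancers and promoters in use. The 3 windows were chosen because their peaks were higher in the knockout. They run on the mm9 genome from 109580000 to 109790000 on chromosome 12 for Eml1, from 103300000 to 104080000 on chromosome 7 for Tenm4 (also called Odz4), and from 122650000 to 123080000 on chromosome 8 for Gse1. Every peak overlapping a window was taken, which gave 12 peaks at Eml1, 29 at Tenm4 and 23 at Gse1, or 64 of the 22731 peaks in the table. Since the difference between knockout and control chose the windows, the sums of the windows are given without a test. Calls of single peaks come from a test over all peaks on this same contrast. Inside the windows they are a description and no support for the difference. The windows carry their gene names as given, and no mm9 gene annotation was used. How much of a window its gene covers was therefore not checked here. Nor was it checked whether a peak lies in an exon, an intron or outside the gene. Where peaks, levels or folds are given below, a gene name stands for its window.

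The mark was profiled by CUT&RUN, where a nuclease tethered to an antibody cuts out the DNA beside the bound histone. The control group held 3 libraries of mouse colon cancer organoids with the genotype AKP, and the knockout group held 3 libraries with the genotype Gata6KO_AKP, so both carry the AKP background, whose alleles the labels do not spell out. The recipient mice are given as C57Bl6 in both groups. How many knockout clones were used, and whether replicates were separate cultures, is not given in the sources used here. Reads in peaks numbered 5141856 to 7026388 per library. The labels were not checked here against the Gata6 locus or markers of colon epithelium. Related genes of the EML and teneurin families and of the CoREST complex were not analysed here, since the table pairs no peak with a gene.

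H3K27ac is placed by the acetyltransferases p300 and CBP and removed by histone deacetylases, and long stretches of it inside genes often mark groups of enhancers. Eml1 encodes a microtubule-binding protein of the EMAP-like family that acts at the mitotic spindle and in neural progenitors. Tenm4 encodes a teneurin, a large transmembrane protein of cell adhesion best known from the nervous system. Gse1 encodes a coiled-coil protein that is a component of the CoREST complex, which holds histone deacetylases and the demethylase LSD1. GATA6 is a zinc finger transcription factor of the gut epithelium that binds the sequence GATA.

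Because the factor removed binds a known motif, the start regions of the genes are shown. The shared direction of the 3 windows follows from how they were chosen and is no reason to expect the motif. RefSeq lists 5 starts for Eml1, 2 for Tenm4 and 3 for Gse1 in the build GRCm38.p6. The first listed start of each gene in its direction of transcription is printed, along with the only one of these 10 starts whose preceding 250 bases hold the GATA motif, searched as the word AGATAA, the word AGATAG, the word TGATAA and the word TGATAG on both strands, with overlapping matches each counted. Each run is the 250 bases before the start, 5′ to 3′, and capitals mark the motif.
Eml1 start 1, chr12:108370903-108371152 (GRCm38.p6, plus strand): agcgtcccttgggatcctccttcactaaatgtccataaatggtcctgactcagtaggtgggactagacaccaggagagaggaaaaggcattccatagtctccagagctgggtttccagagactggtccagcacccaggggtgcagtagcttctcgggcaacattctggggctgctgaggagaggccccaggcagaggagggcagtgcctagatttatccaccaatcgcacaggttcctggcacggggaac
Eml1 start 4, chr12:108423787-108424036 (GRCm38.p6, plus strand): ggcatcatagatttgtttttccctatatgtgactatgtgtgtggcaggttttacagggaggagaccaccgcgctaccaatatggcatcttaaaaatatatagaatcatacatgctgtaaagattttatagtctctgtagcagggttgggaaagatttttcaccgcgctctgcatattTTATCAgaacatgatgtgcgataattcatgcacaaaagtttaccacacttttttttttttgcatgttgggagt
Tenm4 start 1, chr7:96170994-96171243 (GRCm38.p6, plus strand): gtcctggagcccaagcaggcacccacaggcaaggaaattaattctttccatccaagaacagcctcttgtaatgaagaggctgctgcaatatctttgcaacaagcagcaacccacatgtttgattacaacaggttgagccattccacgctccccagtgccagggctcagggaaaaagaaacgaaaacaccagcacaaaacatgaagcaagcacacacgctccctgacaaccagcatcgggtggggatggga
Gse1 start 1, chr8:120488616-120488865 (GRCm38.p6, plus strand): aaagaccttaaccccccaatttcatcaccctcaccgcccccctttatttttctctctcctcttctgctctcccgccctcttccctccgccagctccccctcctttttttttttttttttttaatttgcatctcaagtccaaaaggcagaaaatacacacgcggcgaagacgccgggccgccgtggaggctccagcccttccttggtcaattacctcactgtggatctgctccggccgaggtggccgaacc
The motif in the Eml1 sequence begins 73 bases before the start, read here as the reverse complement of TGATAA. Among the same 250 bases of all 32851 starts in the RefSeq table, 26.5% held at least 1 of these words. A match is a description of letters and no evidence of binding. These positions belong to another build than the peaks and were not converted, so whether a peak lies at any of these starts was not checked. In that build, the neighbouring protein-coding genes are Cyp46a1 and Evl for Eml1, Gm15501 and Nars2 for Tenm4, and Cibar2 and Gins2 for Gse1.

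The level of a peak is its read count per 1000000 reads in peaks of the library (CPM), adjusted between libraries by edgeR's TMM method, and fold changes are knockout over control. Summed over its 12 peaks, Eml1 held 278, 301 and 313 CPM in control replicates 1 to 3 and 722, 653 and 688 CPM in knockout replicates 1 to 3. The Gse1 sum over 23 peaks was 694, 713 and 768 CPM in control and 1195, 1152 and 1256 CPM in knockout libraries. The Tenm4 sum over 29 peaks was 732, 760 and 724 CPM in control and 1007, 1029 and 992 CPM in knockout libraries. At each of the 3 loci the lowest knockout library lay above the highest control library, by 2.08 times at Eml1, 1.499 times at Gse1 and 1.31 times at Tenm4.

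The mean sum went from 297 ± 17.9 to 687 ± 34.6 CPM at Eml1, a 2.31-fold difference (SD, n = 3 libraries per group here and below). It went from 725 ± 38.6 to 1201 ± 52.1 CPM at Gse1, a 1.66-fold difference, and from 739 ± 18.6 to 1009 ± 18.8 CPM at Tenm4, a 1.37-fold difference. The difference of the means, called the gain of a window here, was 476 CPM at Gse1, 389.9 at Eml1 and 271 at Tenm4. The plot of summed levels by library shows these gaps. Whether more cells carried the mark or each cell carried more of it cannot be told apart in bulk organoids.

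**Figure D1:**
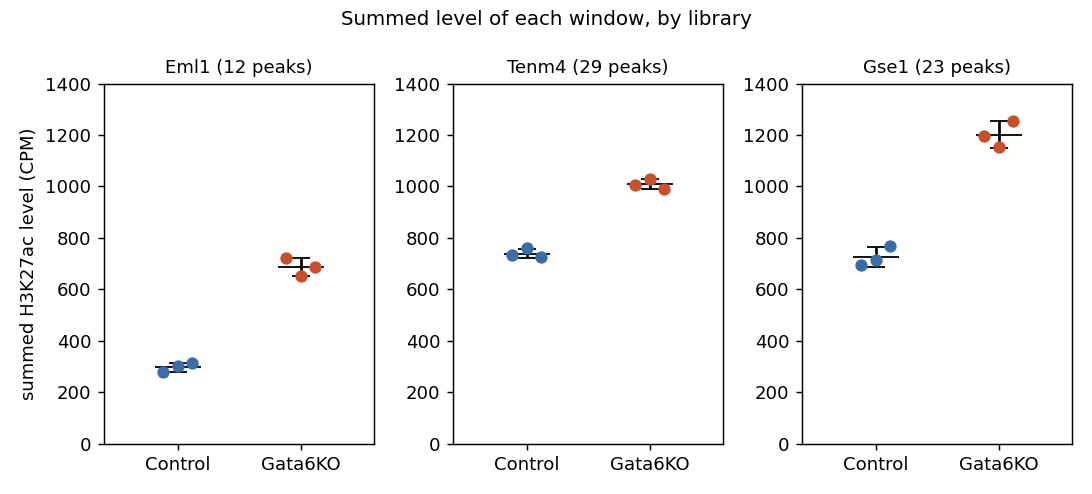
Summed H3K27ac level (CPM, y axis from 0) of the peaks in each window, with 1 point per library and the mean ± SD of 3 libraries in black. All 3 knockout points lie above all 3 control points in each panel, and the gap is widest in proportion at Eml1, 2.31-fold.

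By edgeR's quasi-likelihood test over all peaks, 44 of the 64 peaks were called higher in the knockout and 1 was called lower, at an adjusted p under 0.05. Over all tested peaks 11.6% were called higher and 10.2% lower. The windows were picked on this contrast, so nothing is read from the difference between these shares. Called higher were 11 of 12 peaks at Eml1, 17 of 23 at Gse1 and 16 of 29 at Tenm4. The 3 knockout libraries lay above the 3 control libraries at 10, 16 and 19 of these peaks, 45 in all, and below them at 1, while over all peaks such separation upwards was found at 17.5% and downwards at 16.2%. The median log2 fold change was 1.21 at Eml1, 0.80 at Gse1 and 0.50 at Tenm4, beside -0.01 over all peaks. The medians of the chromosomes that hold the windows were -0.03 for chromosome 12, 0.01 for chromosome 8 and 0.01 for chromosome 7.

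At Eml1 the summed fold was alike in the lower and the upper part of the window, while single peaks ranged widely. The 12 peaks, numbered from the lower coordinate, had log2 fold changes of 0.51 to 1.84, and none was below 0. Most of the signal sat in 2 broad peaks near the lower end of the window. Peak 5, from 109622035 to 109636708 and 14674 bp wide, held the highest level of the window in both groups. It measured 103, 114 and 118 CPM in control and 274, 243 and 273 CPM in knockout libraries, a 2.36-fold difference with a log2 fold change of 1.24 ± 0.07 (SE, from the quasi-likelihood F statistic, here and below). Peak 3, from 109604007 to 109613702, measured 69.2, 81.8 and 82.2 CPM in control and 177, 174 and 182 CPM in knockout libraries, a 2.28-fold difference. In both peaks the groups lay far apart. These 2 peaks supplied 38.9% and 25.6% of the window's gain.

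The largest proportional changes at Eml1 were in weak peaks. Peak 4, from 109619598 to 109621583, measured 5.57, 6.23 and 7.73 CPM in control and 18.5, 27.8 and 24.4 CPM in knockout libraries, a log2 fold change of 1.84 ± 0.27. Peak 10, from 109741244 to 109742916, measured 7.65, 12.9 and 10.0 CPM in control and 29.2, 34.5 and 34.3 CPM in knockout libraries, a log2 fold change of 1.69 ± 0.20. In control libraries peak 4 was weaker than all but 0.326% of the peaks in the table, and in knockout libraries it passed 38.7% of them. Neither pair of groups overlapped. The values of weak peaks depended partly on scaling. With scaling that varied with the mean count, the log2 fold change was 1.48 at peak 4 and 1.63 at peak 10. It was then 0.98 at peak 8 and 0.08 at peak 1, while the broad peaks 3 and 5 had 1.22 and 1.28.

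The smallest changes at Eml1 were in peaks 1 and 7. Peak 1, from 109599899 to 109601960, went from 9.51 ± 1.69 to 13.6 ± 3.83 CPM, its groups overlapped and it was not called (0.51 ± 0.32). Peak 7, from 109686337 to 109692785, rose from 26.6 ± 2.87 to 48.6 ± 5.91 CPM, a log2 fold change of 0.87 ± 0.15. The last peak, number 12 from 109783730 to 109785954, was called with overlapping groups. It measured 8.70, 7.40 and 11.7 CPM in control and 25.4, 10.9 and 15.4 CPM in knockout libraries, so knockout replicate 1 stood above the other two, and without it the log2 fold change was 0.49 and the peak was not called. Its call was also lost without control replicate 1 and without control replicate 2. The same library was the highest at peak 8, with 26.1 CPM against 11.6 and 15.4 CPM. Without knockout replicate 1, 8 of the 12 peaks were called higher in place of 11, and peaks 6, 8 and 12 were the ones lost.

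A gap of 47.1 kb parts the Eml1 peaks into a first block of 6 peaks and a second block of 6. Blocks are peaks of a window separated by more than 35 kb, a distance chosen after the positions were seen. The first block went from 222 ± 17.1 to 515 ± 26.8 CPM, a 2.32-fold difference. The second went from 75.0 ± 1.02 to 172 ± 17.5 CPM, a 2.29-fold difference. Per kb of peak the first block was the denser in both groups, at 6.95 CPM per kb in control and 16.1 in knockout libraries, against 4.23 and 9.72 in the second. The 2 strongest peaks kept a similar share of the window's signal, and some weak peaks did not. Peak 3 held 26.1% of the control sum and 25.8% of the knockout sum, and peak 5 held 37.6% and 38.3%. Peak 1 went from 3.20% to 1.97%, peak 4 from 2.19% to 3.42% and peak 10 from 3.42% to 4.75%.

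**Figure D2:**
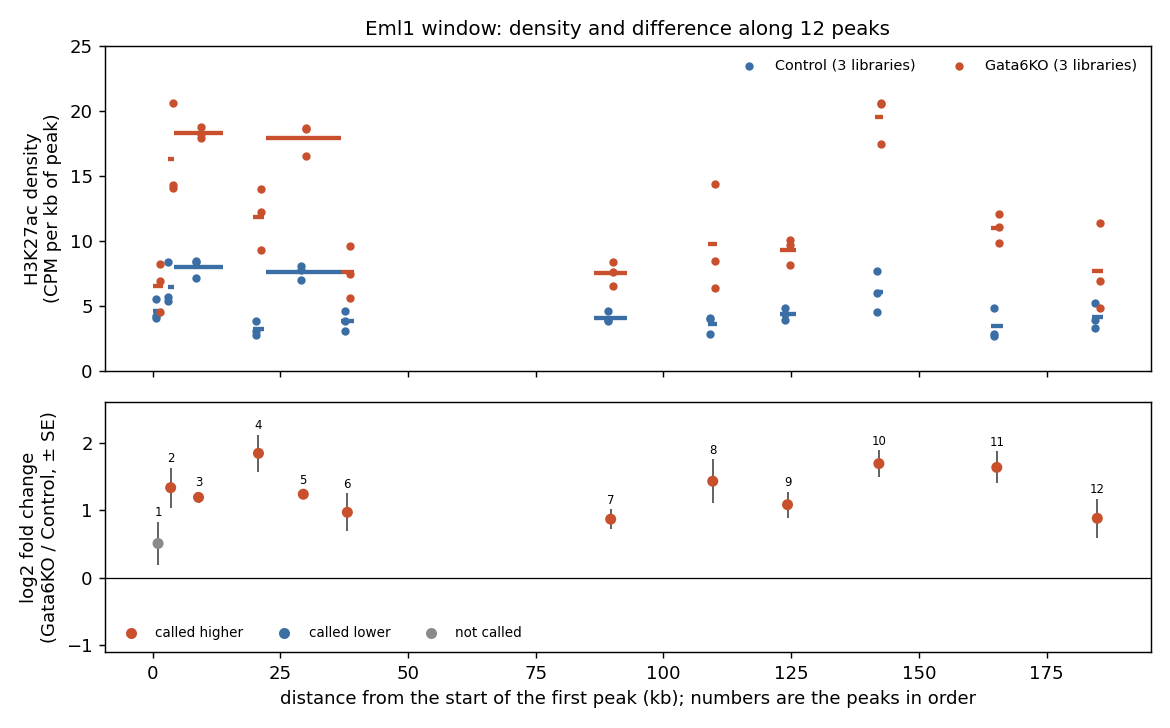
Eml1 window. Top, H3K27ac density (CPM per kb of peak) of each peak against distance from the start of the first peak (kb), with points for libraries and horizontal lines for group means over the width of the peak. Bottom, log2 fold change ± SE of each numbered peak, coloured by call, which stayed between 0.51 and 1.84 along the window.

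Outside the Eml1 window, 1 neighbouring peak was called higher. All 3 windows were chosen for raised peaks inside them, so smaller differences outside may follow from that choice. Nothing is read from the step at an edge. The nearest peak below the window, 54.9 kb from its edge at 109523486 to 109525084, rose from 6.48 ± 0.748 to 16.0 ± 0.677 CPM, a log2 fold change of 1.30 ± 0.34. Beyond it, the broad peak from 109500333 to 109508709 measured 168 ± 7.75 and 170.2 ± 8.25 CPM. The 11 peaks within 200 kb below the window had a median log2 fold change of -0.03, with 1 called higher and 2 called lower. The shares over all tested peaks were 11.6% and 10.2%. The nearest peak above the window, 77.8 kb from its edge at 109867816 to 109871608, went from 38.6 ± 3.27 to 43.7 ± 5.24 CPM and was not called. The 7 peaks within 200 kb on that side had a median of 0.13, with none called higher by edgeR and 1 called lower, and their log2 fold changes reached at most 0.33.

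At Gse1 the largest differences in proportion were at peaks 10 and 12, near the middle of the window, and the smallest lay at its upper end. Its 23 peaks had log2 fold changes of 0.13 to 1.96, and none was below 0. Peak 12, from 122858201 to 122867250, held the highest knockout level of the window. It measured 44.9, 43.2 and 56.1 CPM in control and 133, 152 and 149 CPM in knockout libraries, a 3.01-fold difference with a log2 fold change of 1.58 ± 0.10. It alone supplied 20.3% of the window's gain, and its share of the window's signal went from 6.63% to 12.1%. Peak 10, from 122845904 to 122849888, had the largest log2 fold change of the window, 1.96 ± 0.16. Its libraries measured 15.7, 15.0 and 12.03 CPM in control and 52.6, 45.7 and 67.0 CPM in the knockout, with knockout replicate 3 the highest and no overlap between groups. The narrower peak 11 between them, from 122852381 to 122855674, measured 15.0, 9.74 and 15.2 CPM in control and 17.6, 13.6 and 23.1 CPM in knockout libraries. Its groups overlapped and it was not called (0.44 ± 0.25), so the gain was uneven over short distances.

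The strongest control peak of Gse1 did not pass the test. Peak 23, from 123079679 to 123092354 and 12676 bp wide, crosses the upper edge of the window. It measured 109, 125 and 118 CPM in control and 143, 126 and 118 CPM in knockout libraries, with overlapping groups and a log2 fold change of 0.14 ± 0.08. Its share of the window's signal went from 16.2% to 10.8%. Peak 19, from 123059521 to 123064797, had the smallest log2 fold change, 0.13 ± 0.13, with 44.9 ± 11.01 CPM in control and 49.6 ± 1.20 CPM in knockout libraries.

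Gaps of more than 35 kb part the Gse1 peaks into 5 blocks. The first, of 2 peaks, went from 42.7 ± 4.65 to 83.0 ± 7.66 CPM, a 1.94-fold difference. Within it peak 1, from 122675490 to 122678567, went from 16.4 ± 0.377 to 22.1 ± 5.96 CPM and was not called, and peak 2, from 122689786 to 122693950, rose from 26.3 ± 4.50 to 60.9 ± 2.46 CPM. The second block, peaks 3 to 9, went from 128 ± 7.97 to 241 ± 12.3 CPM, a 1.89-fold difference, and all 7 of its peaks were called higher. The third block, peaks 10 to 16, went from 279.6 ± 16.6 to 546 ± 40.2 CPM, a 1.95-fold difference, and supplied 55.9% of the window's gain. These 3 blocks differed little in fold, although they differed in level.

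The difference was smaller in the last 2 blocks. Peaks 17 and 18 together went from 31.6 ± 3.09 to 48.8 ± 7.17 CPM, a 1.55-fold difference. The last block, peaks 19 to 23, went from 244 ± 21.9 to 282 ± 5.81 CPM, a 1.16-fold difference. Its libraries measured 220, 248 and 263 CPM in control and 289, 280.2 and 278 CPM in the knockout, so the groups lay apart by a narrow margin, and 1 of its 5 peaks was called higher. That block held 8.15% of the window's gain. Across the 23 peaks the log2 fold change was lower at higher positions (Spearman's rho = -0.58, a description over peaks that share 6 libraries).

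**Figure D3:**
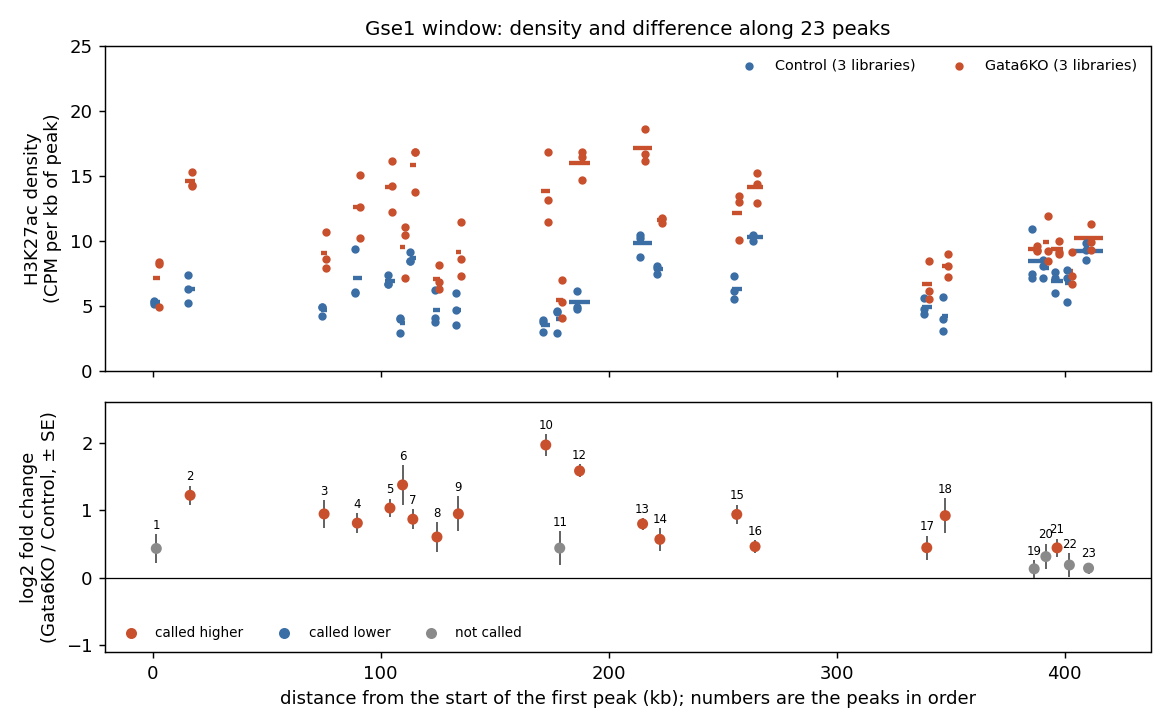
Gse1 window, drawn as for Eml1: density (CPM per kb of peak) by library on top and log2 fold change ± SE below, against distance from the start of the first peak (kb). Peaks 10 and 12 stand highest at 1.96 and 1.58, with the uncalled peak 11 between them, and peaks 19 to 23 lie between 0.13 and 0.44.

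Of the 18 peaks within 200 kb of the Gse1 window, edgeR called 1 lower and none higher, beside 10.2% and 11.6% over all peaks. As at Eml1, the choice of the window may itself give such a step at the edge. The nearest peak below it, from 122624605 to 122626047, went from 17.9 ± 2.90 to 16.0 ± 2.41 CPM. The next, from 122612814 to 122622253, went from 102 ± 11.4 to 91.8 ± 4.42 CPM, and neither was called. The 9 peaks within 200 kb on that side had a median log2 fold change of -0.15 and ran from -0.40 to 0.25, beside 0.43 at peak 1 and 1.22 at peak 2, the first peaks inside that edge. Above the window the nearest peak, from 123096443 to 123102537, went from 51.7 ± 5.72 to 57.0 ± 3.44 CPM, and the median of 9 peaks was 0.14, much as in the last block inside the window. On that side the log2 fold changes ran from -0.42 to 0.32. The peak called lower, from 122468261 to 122472582 below the window, had a log2 fold change of -0.40.

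Tenm4 had the smallest difference in proportion of the 3 loci, and it declined along the window to a negative value at the upper end. The first 369 kb of the window held no peak, so its 29 peaks span the 384 kb from 103669362 to 104053846. Their log2 fold changes ran from 1.12 to -0.35, with 27 above 0 and 2 below. Peak 5, from 103697445 to 103706404, held the highest knockout level of the window. It measured 68.2, 65.0 and 63.3 CPM in control and 114, 101 and 115 CPM in knockout libraries, a 1.68-fold difference with a log2 fold change of 0.75 ± 0.10, and it supplied 16.5% of the window's gain. Peak 3, from 103678301 to 103681328, had the largest log2 fold change, 1.12 ± 0.18. Its libraries measured 14.1, 16.0 and 14.3 CPM in control and 26.3, 36.3 and 33.99 CPM in the knockout. Peak 8, from 103732200 to 103733754, was next, with 7.31, 7.79 and 8.88 CPM in control and 12.5, 15.2 and 17.6 CPM in knockout libraries (0.92 ± 0.33). In these 3 peaks the groups did not overlap.

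The other end of the Tenm4 window went the opposite way. Peak 29, from 104048608 to 104053846, had the highest control level of the window and was the 1 peak of the 64 called lower. It measured 98.4, 97.8 and 85.6 CPM in control and 77.1, 73.3 and 70.5 CPM in knockout libraries, so every knockout library lay below every control library, with a log2 fold change of -0.35 ± 0.10. Its share of the window's signal went from 12.7% to 7.30%. Peak 27, from 104036965 to 104039240, also had a negative value, -0.23 ± 0.17, with 26.4 ± 3.49 CPM in control and 22.6 ± 2.41 CPM in knockout libraries, overlapping groups and no call. Peak 28 between them, from 104039332 to 104042478, measured 23.8 ± 1.40 and 29.5 ± 8.56 CPM.

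In 3 blocks parted by gaps of 57.1 and 39.2 kb, the fold of the Tenm4 sums dropped mainly at the last block. The median log2 fold changes of the blocks were 0.75, 0.76 and 0.31 in order. Peaks 1 to 9 went from 224 ± 8.68 to 368 ± 4.61 CPM, a 1.65-fold difference, and 8 of the 9 were called higher. Peaks 10 to 17 went from 162 ± 13.3 to 252 ± 13.4 CPM, a 1.56-fold difference, and 6 of the 8 were called higher. Peaks 18 to 29 went from 353 ± 20.1 to 389 ± 14.0 CPM, a 1.10-fold difference, with 2 called higher and 1 lower of 12. In that last block the control libraries measured 355, 373 and 333 CPM and the knockout libraries 400.3, 393 and 373 CPM, so the highest control and the lowest knockout library nearly met. The first block supplied 53.4% of the window's gain and the last 13.2%. Across the 29 peaks the log2 fold change was lower at higher positions, with a Spearman's rho of -0.75, given as a description over peaks that share 6 libraries.

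**Figure D4:**
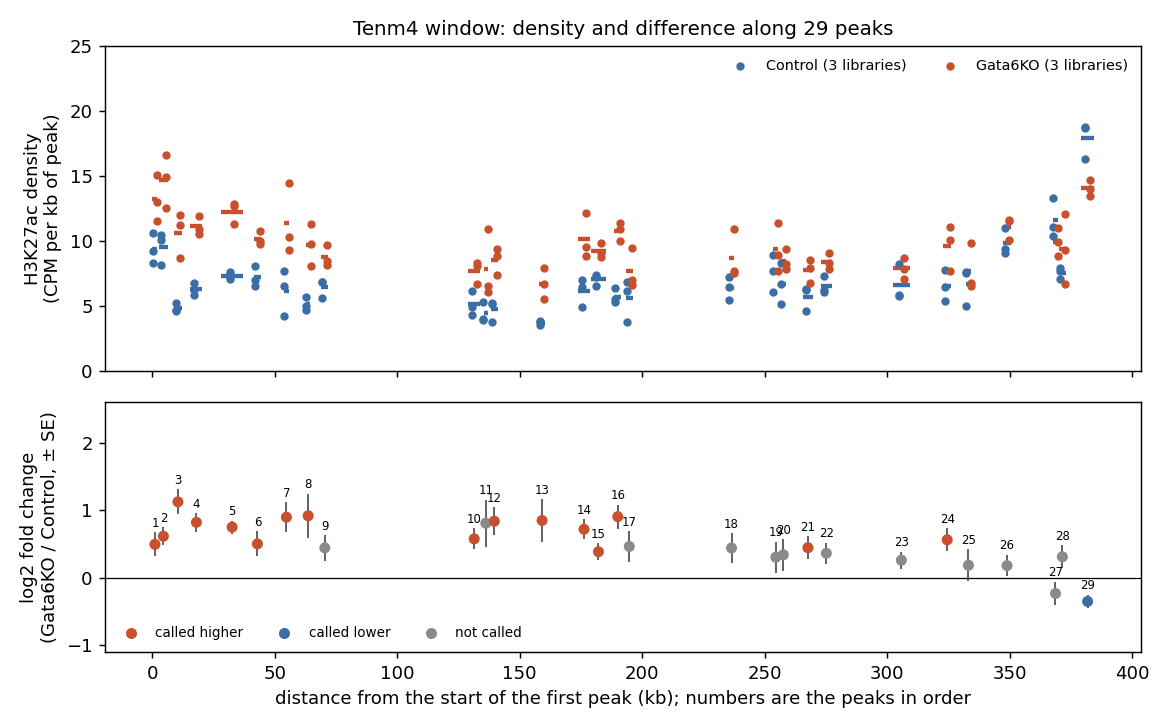
Tenm4 window, drawn as for Eml1: density (CPM per kb of peak) by library on top and log2 fold change ± SE below, against distance from the start of the first peak (kb). The differences run from 1.12 at peak 3 down to -0.35 at peak 29, where control density is the highest of the window, 17.9 CPM per kb.

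Several Tenm4 peaks had separate groups without a call. Peak 11, from 103804629 to 103806348, went from 7.65 ± 1.32 to 13.5 ± 4.65 CPM, a 1.77-fold difference that was not called (0.81 ± 0.35). Peak 9, from 103738363 to 103741196, went from 18.3 ± 1.98 to 24.8 ± 2.34 CPM (0.44 ± 0.19). The first peak of the window, from 103669362 to 103671461, was called with a difference of similar size, from 19.7 ± 2.41 to 27.8 ± 3.72 CPM (0.50 ± 0.18). That call was lost without control replicate 2, control replicate 3, knockout replicate 1 or knockout replicate 3. The call at peak 8 was lost without any 1 of the 3 control libraries and without knockout replicate 3. Of the 16 peaks called higher at Tenm4, 10 passed at an adjusted p under 0.01, and 10 were called when control replicate 3 was left out.

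No peak lay within 200 kb below the Tenm4 window. Above it, the nearest peak, from 104099717 to 104100592, went from 11.6 ± 1.19 to 10.7 ± 5.22 CPM and was not called. The next, from 104229425 to 104231757, fell from 20.4 ± 3.15 to 12.7 ± 0.975 CPM, a log2 fold change of -0.68 ± 0.24, and was called lower. The first of these lay 19.7 kb from the edge with overlapping groups. The second lay 149 kb from it, with every knockout library below every control library. Thus 1 of these 2 peaks was called lower and 0 higher, beside 10.2% and 11.6% over all tested peaks.

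In control organoids the peaks of the 3 loci had low density, meaning CPM per kb of peak. The windows were chosen on knockout over control, so the control level entered the choice and this is a description only. Their median widths were 2319 bp at Eml1, 2999 bp at Tenm4 and 3763 bp at Gse1, around the 2690 bp of all peaks. In control libraries the median density was 4.29 CPM per kb at Eml1, 6.55 at Tenm4 and 6.35 at Gse1, beside 10.7 over all peaks. All 12 Eml1 peaks, all 23 Gse1 peaks and 27 of the 29 Tenm4 peaks lay below that overall median, and the other 2 were peaks 27 and 29 at Tenm4, the 2 with negative log2 fold changes. In knockout libraries the median density was 10.4 CPM per kb at Eml1, 9.37 at Tenm4 and 9.90 at Gse1, near the 10.7 of all peaks. Then 6 peaks at Eml1, 21 at Tenm4 and 13 at Gse1 lay below the overall median.

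**Figure D5:**
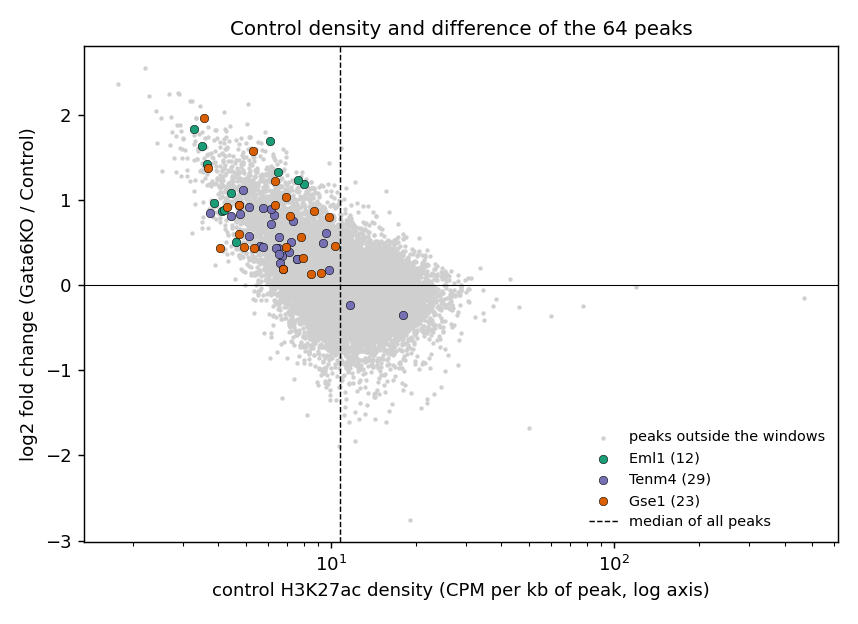
Log2 fold change (y) against control density (CPM per kb of peak, log axis) of the 64 peaks over the other peaks of the table in grey, with the median density of all peaks as a dashed line. The 2 Tenm4 peaks right of the line are the 2 below 0 on the y axis. Control values enter both axes.

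Within loci, the order of the peaks by density went with the size of the difference most clearly at Tenm4. Spearman's rho between control density and log2 fold change was -0.72 at Tenm4 over 29 peaks, -0.49 at Gse1 over 23 and -0.23 at Eml1 over 12. The control level enters both measures and the peaks share libraries and depth, so these values are a description. Width alone did not order the knockout densities, since the widest Gse1 peak, number 23, held 10.2 CPM per kb and peak 7 at Eml1, 6449 bp wide, held 7.54. Peak 3 at Eml1 reached 18.3 CPM per kb and peak 5 18.0, denser than 95.6% and 95.1% of all peaks, from 8.02 and 7.62 in control. At Gse1 peak 13, from 122886290 to 122894462, reached 17.2 CPM per kb from 9.87, and peak 12 reached 16.0 from 5.31. The densest knockout peak at Tenm4, number 2 from 103672053 to 103675672, reached 14.7 CPM per kb from 9.58. The narrow peak 10 at Eml1 was the densest of the 64 in the knockout, at 19.5 CPM per kb from 6.08.

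Per kb of peak, the 3 loci changed order. In control libraries Tenm4 held 7.28 ± 0.183, Gse1 7.02 ± 0.374 and Eml1 5.98 ± 0.359 CPM per kb. Tenm4 and Gse1 differed by less than the spread between Gse1 libraries, and Eml1 was the lowest. In knockout libraries Eml1 held 13.8 ± 0.696, Gse1 11.6 ± 0.504 and Tenm4 9.95 ± 0.185 CPM per kb, and the differences between neighbours in this order were larger than either SD.

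Raw counts of single peaks ran from 32 to 1704 per library at Eml1, 35 to 718 at Tenm4 and 34 to 948 at Gse1, with medians of 104, 137.5 and 162. The median coefficient of variation between control libraries was 18.5% at Eml1, 12.8% at Tenm4 and 13.6% at Gse1, beside 10.9% over all peaks. Scaling that varied with the mean count, under which the lost peaks had smaller differences, left 39 of the 44 higher calls. The calls lost under it were peaks 6 and 12 at Eml1, 8 and 13 at Tenm4 and 8 at Gse1, and peak 12 at Eml1 then had a log2 fold change of 0.54 in place of 0.88. The log2 fold change of the sum was 1.17 at Eml1, 0.43 at Tenm4 and 0.73 at Gse1 with that scaling, beside 1.21, 0.45 and 0.73.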

How the data were processed

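The table deposited by the authors holds whole-number counts for 1 peak set shared by 6 H3K27ac libraries. The submitters' processing notes name the build mm9 and, without versions or roles, SEACR, Bowtie, bedtools, Picard and SAMtools. The counting program and the way peaks were merged are not given in the sources. Between 82.8% and 88.9% of counts per library were even, and whether both mates of a pair were counted is not stated. The H3K4me3 and IgG libraries of the series were not analysed here, so no background was subtracted.

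All 22731 peaks passed edgeR's filter. They were fitted with edgeR 4.0.16 in R 4.3.3 (TMM factors over reads in peaks, quasi-likelihood fit, group as the only term, two-sided, Benjamini-Hochberg over all peaks). The code was tried on simulated counts with few changed peaks and a single dispersion. That setting differs from these data, so nothing here rests on it. TMM scaling hides any shift common to the whole peak set. The p-values behind calls measure the spread between libraries, which may be technical. The windows, members and comparisons were chosen with earlier results of these data known. Described in full were, per window, the peaks with the highest control and knockout level, the 2 largest and 2 smallest log2 fold changes, the first and last peaks and the nearest peaks outside. Other peaks, and the blocks, were named after their values were seen. Alternatives were DESeq2 1.42.0, other scaling, filters and thresholds, halved counts, leaving out each library, and a fit with a replicate block. Rank correlations used SciPy 1.17.1.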

Additional observations from a re-analysis of the deposited data

How the results depend on the processing

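The summed log2 fold changes and the calls kept their direction in all alternatives run. Higher calls over the 64 peaks numbered 44 with upper-quartile factors, size factors from DESeq2, library totals and no filter (which removed no peak and so tests nothing), 43 on halved counts, 42 with DESeq2, 39 with trended offsets and 35 at an adjusted p under 0.01, where Tenm4 kept 10. A test against a 1.5-fold change (edgeR's glmTreat) called 6 peaks higher at Eml1, 5 at Gse1 and 1 at Tenm4, 12 in all, and 0 lower (0 at an unadjusted p under 0.05), since smaller changes cannot pass by construction. Nothing in the labels pairs libraries by number. The deviations from group means of a control and a knockout library with 1 number correlated at 0.00595 to 0.0662, and not each library correlated best with its own number. A replicate block gave 43 higher calls, 16 of them at Gse1, where peak 17 lost its call. When single libraries were left out, higher calls numbered 35 to 44 in all, 8 to 11 at Eml1, 14 to 18 at Gse1 and 10 to 15 at Tenm4, the 10 without control replicate 3. Lower calls stayed at 1. The log2 fold changes of sums then ranged from 1.17 to 1.25 at Eml1, 0.70 to 0.77 at Gse1 and 0.44 to 0.47 at Tenm4. The Gse1 sum depended on peak 23, which crosses the window's edge and is its strongest: without it the log2 fold change was 0.82 in place of 0.73. The Tenm4 value was 0.42 without peak 5, which had the highest mean level over the 6 libraries. It was 0.51 as a mean over peaks, in place of 0.45. Scaling without chromosome 5 gave 1.19, 0.43 and 0.71 at Eml1, Tenm4 and Gse1.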

Other observations

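Peaks elsewhere in the genome followed the profile of each sum over the 6 libraries closely. They were ranked by the distance between log2 CPM values centred over the 6 libraries, among peaks outside the windows with a mean level at or above the median. With 2 groups of 3 libraries this mostly finds peaks of like fold change, and it says nothing of shared function. For Eml1 the closest was a peak on chromosome 9 (57978979 to 57989744), at a distance of 0.118. It held 75.2 ± 1.52 CPM in control and 170.5 ± 5.54 CPM in knockout libraries (SD, n = 3). Next came chromosome 14 (77083394 to 77089011), with 33.4 ± 0.683 against 78.6 ± 4.87 CPM. For Gse1 the closest was on chromosome 11 (120543441 to 120551474), with 94.7 ± 5.28 against 162 ± 3.13 CPM. Next came chromosome 6 (88873454 to 88883178), with 74.3 ± 3.85 against 119.7 ± 7.86 CPM. For Tenm4 the closest was on chromosome 10 (94007579 to 94010442), with 41.9 ± 2.15 against 55.7 ± 1.31 CPM. Next came the broad peak on chromosome 9 (107585793 to 107613710), with 431 ± 6.24 against 585 ± 23.4 CPM.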
